A study of Mus musculus with 18 samples.

Results

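Mature natural killer (NK) cells that lacked Runx3 were compared with wild-type cells of the same gate. The members of the comparison were the 3 arrays titled as CD11b knockout and the 3 titled as CD11b wild type, 6 of the 18 arrays of the series, chosen by those titles alone. The tested cells were Runx3 -/- (KO) and their controls Runx3 +/+ (WT). Both came from the spleens of ICR mice aged 6 weeks, labelled as male or female. All mice, WT included, had been injected 2 times, 2 days apart, with IL15/Ra complexes, in which the cytokine interleukin-15 is carried by the alpha chain of its receptor. NK cells were enriched by negative selection and sorted as NKp46+CD27-CD11b+ cells, called CD11b cells here. The other 12 arrays held the CD27+CD11b- (CD27) and CD27+CD11b+ (DP) cells of both genotypes. The labels give neither the deleted part of Runx3 nor a count of animals per array. The p-values therefore measure the spread between these samples, which may be technical, and their precision is limited by how few arrays there are.

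Runx3 belongs to the Runt family of transcription factors, which bind DNA together with the partner Cbfb at short sites of the form TGTGGT or TGCGGT. NK cells are innate lymphocytes that kill infected or transformed cells with granzymes and perforin. During maturation in the mouse spleen they gain CD11b and then lose CD27, and interleukin-15 drives both their survival and their division. Each value below is a log2 RMA value, a normalized log2 signal of 1 probe set, and was compared only with the same probe set on other arrays. A probe set is called changed where the adjusted p of limma, after Benjamini-Hochberg adjustment over all 35399 probe sets, was under 0.05.

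Runx3 signal was 11.46, 11.24 and 11.10 in KO cells, against 11.62, 11.85 and 11.80 in WT cells. All 3 KO arrays lay below the WT arrays, yet the gap was small. The log2 difference was -0.49 (standard error 0.11, adjusted p = 0.0416). Without KO replicate 3 it was -0.41 (adjusted p = 0.190), and it also missed the threshold without WT replicate 2 (0.191), WT replicate 3 (0.147) or KO replicate 2 (0.0610). The position of this probe set with respect to the deletion is not given in the sources used here, so the value checks the labels only weakly. Neither Runx1, the family member also made in lymphocytes (log2 difference 0.31, adjusted p = 0.243), nor Cbfb (0.00, adjusted p = 0.994) passed the test.

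The sorted cells carried the defining transcripts of NK cells in both genotypes. Ncr1, which encodes NKp46, was 13.61, 13.77 and 13.45 in KO cells, against 13.73, 13.72 and 13.80 in WT cells. Itgam, which encodes CD11b, was 12.26, 12.25 and 11.98 in KO cells, against 12.57, 12.63 and 12.61 in WT cells. Each KO array lay below each WT array for Itgam (log2 difference -0.44), a pattern found for 13.1% of named genes. Cd27 was 9.48, 10.22 and 8.75 in KO cells, against 9.85, 9.94 and 9.83 in WT cells. Tbx21 and Eomes, the T-box factors of the NK lineage, and the receptor and integrin genes Klrb1c, Klrk1 and Itga2 had log2 differences between -0.31 and -0.13. None of these 8 genes passed the test, with adjusted p between 0.347 and 0.625.

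1 array stood apart. Pearson's r between the 6 arrays ran from 0.9685 to 0.9941, and the highest r of KO replicate 3 with any other array was 0.9765, whereas each of the others reached at least 0.9921 with another. KO replicate 3 carried transcripts of neutrophils, monocytes, dendritic cells and B cells. Lcn2, a neutrophil granule gene, was 4.85, 5.02 and 12.27 in KO cells, against 5.0, 4.95 and 4.88 in WT cells. Lyz2, the lysozyme of myeloid cells, was 7.96, 5.02 and 12.27 in KO cells, against 5.02, 5.32 and 5.04 in WT cells. H2-Aa, an MHC class II chain, was 7.27, 5.38 and 11.89 in KO cells, against 5.19, 5.43 and 5.31 in WT cells. KO replicate 3 was thus high for all 3 genes, KO replicate 1 was raised for Lyz2 and H2-Aa but not for Lcn2, and KO replicate 2 lay at or near the WT level for each.

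The whole marker lists set KO replicate 3 apart as well. Summed over the 20 measured neutrophil markers, the log2 level was 9.55, 9.53 and 14.27 in KO cells, against 9.52, 9.48 and 9.44 in WT cells. For the 22 dendritic cell and MHC class II markers it was 12.47, 12.47 and 14.48 in KO cells, against 12.73, 12.77 and 12.58 in WT cells. The 27 monocyte and macrophage markers summed to 12.04, 12.35 and 14.09 in KO cells, against 12.68, 12.94 and 12.78 in WT cells. Within that last list the tissue macrophage genes C1qa, C1qb, C1qc, Marco, Vcam1 and Mrc1 stayed near the WT level on KO replicate 3, between 4.79 and 5.36. None of the 20 neutrophil markers and none of the 22 MHC class II and dendritic cell markers passed the test, where 1.64% of all named genes did. Of the 27 monocyte and macrophage markers, 1 passed, Ccr2, which fell. At that share few calls could be expected in lists of this size. The spread among KO arrays was also wide for such genes, with a standard deviation of 4.24 for Lcn2, against 0.06 among WT arrays. The part of other cells in the differences below was not tested, and results are given with and without KO replicate 3. Among B cell markers the summed level was 9.28, 9.32 and 11.72 in KO cells, against 10.66, 9.33 and 9.18 in WT cells, so that KO replicate 3 and WT replicate 1 were both high. Such a sum adds unlogged signals, so a single strong gene can carry it. Cd72, a member of this list, was 10.08 on WT replicate 1, against 6.96 and 5.93 on the other WT arrays and 5.25 on KO replicate 3. The high sum of WT replicate 1 therefore does not show that B cell markers were raised there as a set.

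**Figure D1:**
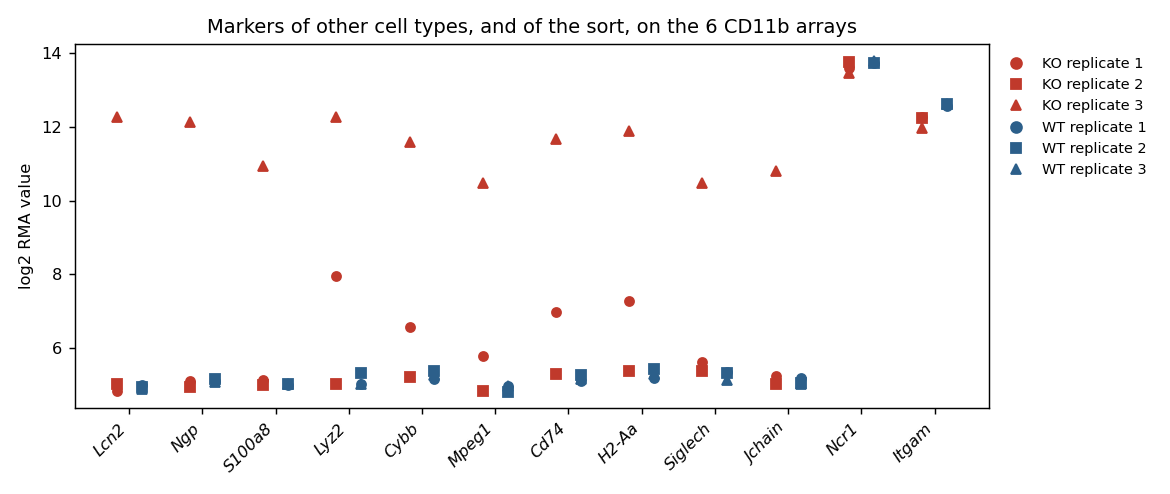
Log2 RMA values (vertical axis) of marker genes (horizontal axis) on the 3 KO arrays (red, left of each pair) and the 3 WT arrays (blue), with 1 symbol shape per replicate. KO replicate 3 lies at 10.47 or above for each of the 10 markers of other cell types (lowest for Siglech), and KO replicate 1 is raised for Lyz2, Cybb, Cd74 and H2-Aa. Ncr1 and Itgam, the markers of the sort, are high on all arrays, with Itgam lower on each KO array than on each WT array.

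Xist, the RNA of the inactive X chromosome, also split the arrays. It was 5.43, 5.62 and 12.64 in KO cells, against 5.19, 12.53 and 12.48 in WT cells, so that 2 of 3 KO arrays and 1 of 3 WT arrays were low. The Y-linked gene Eif2s3y was 11.03, 11.12 and 9.10 in KO cells, against 11.04, 7.23 and 5.36 in WT cells. It did not simply mirror Xist. KO replicate 3 had high Xist together with Eif2s3y well above WT replicate 3, and WT replicate 2 lay between them. Whether an array held cells of both sexes was not tested. Values within the low-Xist arrays (KO replicates 1 and 2 minus WT replicate 1) and within the high-Xist arrays (KO replicate 3 minus WT replicates 2 and 3) are given below for some of the largest falls and rises and for 3 receptors. The only KO array of the high-Xist set is KO replicate 3, which carried transcripts of other cells. The only WT array of the low-Xist set is WT replicate 1. The sets were divided by Xist alone, so they do not show that a difference held within each sex.

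With all arrays, 457 of 35399 probe sets differed between KO and WT CD11b cells, which is 1.29% of those tested. Of these, 161 were higher in KO (0.455%) and 296 lower (0.836%). After cyclic loess the split was 234 higher and 266 lower, and without the arrays of KO replicate 3 in all 3 subsets it was 248 higher and 232 lower. The KO and WT arrays did not overlap for any of the 457, which selection by a small p makes likely. Over all named genes, every KO array lay above every WT array for 7.12%, and below for 13.1%. Without KO replicate 3 the count was 255 (0.72%), with 111 higher (0.314%) and 144 lower (0.407%). The 2 fits shared 226 calls, 96 higher and 130 lower. A further 231 were called only with all arrays and 29 only without KO replicate 3. With KO replicate 2 alone against the 3 WT arrays, 59 probe sets were called (0.167%), 32 higher (0.0904%) and 27 lower (0.0763%), and 56 of these were among the 226. At least 2-fold differences were found for 50 of the shared higher and 50 of the shared lower probe sets, which represent 33 and 42 named genes. The median log2 difference over 19938 named genes, each represented by its probe set with the highest mean, was -0.0158 with all arrays and -0.0072 without KO replicate 3. Counts without other single arrays ran from 182 (without WT replicate 2) to 1094 (without KO replicate 2), and a fit of these 6 arrays alone called 34.

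**Figure D2:**
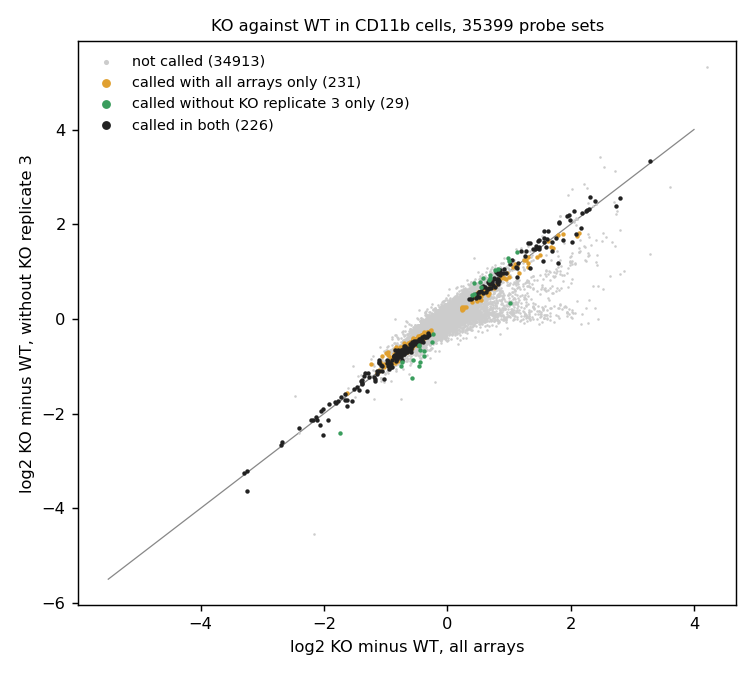
Log2 difference, KO minus WT, of each of the 35399 probe sets with all arrays (horizontal axis) and without KO replicate 3 (vertical axis); the line marks equal values. The 226 probe sets called in both fits (black) lie along the line, while a cloud of uncalled probe sets (grey) is raised with all arrays and near 0 without KO replicate 3.

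Among named genes called in both fits, Anxa8, Nuak1, Gata6 and Clip4 fell most in KO cells. Nuak1, a kinase of the AMPK-related family, was 5.28, 5.50 and 5.28 in KO cells, against 8.69, 8.23 and 8.88 in WT cells. Anxa8, an annexin that binds phospholipids in the presence of calcium, was 6.56, 5.57 and 5.94 in KO cells, against 8.58, 9.89 and 9.52 in WT cells. Clip4, a member of the CAP-Gly linker family whose relatives bind microtubules, was 5.50, 5.61 and 5.34 in KO cells, against 7.89, 8.23 and 8.39 in WT cells. For each of the 3 genes the KO arrays lay well below all WT arrays and KO replicate 3 did not stand apart from the other KO arrays. Nuak1 was 9.51-fold lower (95% interval 7.66 to 11.8, adjusted p = 6.85e-08), Anxa8 9.86-fold lower (5.79 to 16.8, adjusted p = 0.000403) and Clip4 6.43-fold lower (4.76 to 8.67, adjusted p = 1.78e-05). The log2 differences were -3.21 for Nuak1, -3.26 for Anxa8 and -2.61 for Clip4 without KO replicate 3. They were -3.30, -2.51 and -2.33 within the low-Xist arrays, and -3.28, -3.76 and -2.97 within the high-Xist arrays. In these bulk samples fewer cells that make a transcript and less transcript per cell cannot be told apart.

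Promoter windows are shown for Anxa8, Nuak1 and Clip4, which are 3 of the 4 largest falls; that of Gata6 is not shown. They are from RefSeq on GRCm38.p6, run 5′ to 3′ on the gene's strand from 250 bases before its annotated start to 50 bases after it, and TGTGGT on either strand, which reads ACCACA when it lies on the other strand, is in capitals. The windows are chr14:34085729-34086028 (plus strand) for Anxa8, chr10:84440619-84440918 (minus strand) for Nuak1 and chr17:71769441-71769740 (plus strand), the first of 3 listed, for Clip4.
Anxa8: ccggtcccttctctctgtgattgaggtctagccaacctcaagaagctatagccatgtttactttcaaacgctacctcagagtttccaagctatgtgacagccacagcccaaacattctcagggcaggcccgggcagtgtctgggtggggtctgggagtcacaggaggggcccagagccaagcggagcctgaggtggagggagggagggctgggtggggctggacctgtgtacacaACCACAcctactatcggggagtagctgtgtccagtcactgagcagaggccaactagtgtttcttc
Nuak1: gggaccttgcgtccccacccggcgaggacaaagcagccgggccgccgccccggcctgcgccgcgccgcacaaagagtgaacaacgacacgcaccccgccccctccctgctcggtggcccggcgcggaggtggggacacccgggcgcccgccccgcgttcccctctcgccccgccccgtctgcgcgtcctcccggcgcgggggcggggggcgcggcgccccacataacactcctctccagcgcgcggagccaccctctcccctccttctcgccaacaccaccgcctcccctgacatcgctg
Clip4: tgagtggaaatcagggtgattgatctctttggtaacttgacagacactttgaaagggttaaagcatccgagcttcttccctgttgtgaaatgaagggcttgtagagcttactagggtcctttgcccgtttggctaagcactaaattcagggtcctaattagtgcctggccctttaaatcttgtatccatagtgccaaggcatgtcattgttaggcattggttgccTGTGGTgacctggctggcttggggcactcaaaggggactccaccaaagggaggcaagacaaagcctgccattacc
Anxa8 held 1 match, on the other strand at -15 relative to the start, and Clip4 held 1 on the gene's strand at -25, whereas the Nuak1 window held 0. Over the genes called in both fits, 22 of the 91 lower genes with a window held TGTGGT (24.2%), as did 14 of the 55 higher genes (25.5%) and 2567 of all 15614 named genes with a window (16.4%). Counted over windows, since a gene can have several, the shares were 19.2%, 16.9% and 14.2%. TGCGGT was in 14.3% of the lower genes, 12.7% of the higher genes and 9.15% of all genes. A match describes the letters of a window and is not evidence of binding.

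Transcription factor and adhesion genes were among the falls as well. Gata6, which showed the third largest fall and encodes a GATA factor known for endoderm, heart and peritoneal macrophages, was 6.26, 6.39 and 6.21 in KO cells, against 9.28, 8.99 and 8.69 in WT cells. Itgb4, the integrin beta chain that pairs with alpha6 to bind laminin, was 5.77, 5.56 and 5.36 in KO cells, against 8.04, 8.72 and 7.15 in WT cells. The groups were separate for both genes, with a wide spread of Itgb4 among WT arrays. Itgb4 fell 5.29-fold (3.60 to 7.77, adjusted p = 0.000384), and Gata6 fell 6.48-fold (4.12 to 10.2, adjusted p = 0.000474). Gpr25, which encodes a G protein-coupled receptor, was 6.28, 7.10 and 6.46 in KO cells, against 8.35, 9.27 and 8.85 in WT cells, and was 4.62-fold lower (adjusted p = 0.00509).

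Several genes of the cytoskeleton and of cell contacts fell by about the same factor. Pdlim1, a PDZ and LIM protein that binds alpha-actinin, was 8.32, 8.74 and 9.04 in KO cells, against 10.83, 10.89 and 10.60 in WT cells, and both of its probe sets fell. Avil, the actin regulator advillin, was 6.19, 6.19 and 5.90 in KO cells, against 8.11, 8.48 and 7.82 in WT cells. Scel, which encodes sciellin, a precursor of the cornified envelope of skin, was 5.34, 5.30 and 5.12 in KO cells, against 6.92, 7.92 and 7.32 in WT cells. No KO array reached the lowest WT array for any of the 3. The log2 differences were -2.07 for Pdlim1, -2.04 for Avil and -2.13 for Scel, with adjusted p between 1.91e-05 and 0.000474. Dixdc1, a DIX domain protein of Wnt signalling (log2 difference -2.18), and Tmem108, a transmembrane protein of neurons (-2.11), fell likewise.

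Phosphatases and a channel were also called. Ptpn3, a tyrosine phosphatase, was 6.55, 6.47 and 6.16 in KO cells, against 8.36, 8.73 and 8.14 in WT cells. It fell by 2.02 on the log2 scale (adjusted p = 0.000474), and 11 of its 12 probe sets were called lower. Ptprs, a receptor tyrosine phosphatase, was 7.24, 7.01 and 8.43 in KO cells, against 9.61, 9.62 and 9.50 in WT cells. KO replicate 3 was the KO array nearest to WT, and the log2 difference was -2.01 with it (adjusted p = 0.0197) and -2.45 without it (adjusted p = 0.00602). The Ptprs call was lost without WT replicate 1 (0.0675), WT replicate 2 (0.0868), WT replicate 3 (0.0646) or KO replicate 1 (0.0954). Ndrg2, a member of the N-myc downstream regulated family, was 6.93, 7.48 and 7.04 in KO cells, against 8.91, 9.05 and 8.93 in WT cells (log2 difference -1.82, adjusted p = 1.78e-05). Kcnc1, a voltage-gated potassium channel, was 5.23, 5.28 and 5.16 in KO cells, against 6.69, 7.47 and 6.95 in WT cells (-1.81, adjusted p = 0.000356). For both genes no KO array reached the lowest WT array.

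The remaining falls among the 20 largest were Galnt3, which starts mucin-type O-glycosylation (log2 difference -1.92), Mgll, the lipase that degrades 2-arachidonoylglycerol (-1.77), the secreted C1q-like protein gene C1ql3 (-1.72), the palmitoyltransferase gene Zdhhc2 (-1.67) and Tmem42 (-1.65). Their adjusted p ran from 1.78e-05 for Tmem42 to 0.0102 for Zdhhc2. Zdhhc2 missed the threshold without WT replicate 1 (0.0512), WT replicate 2 (0.0624) or KO replicate 1 (0.0556). All 20 genes had lower values on each KO array than on each WT array.

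**Figure D3:**
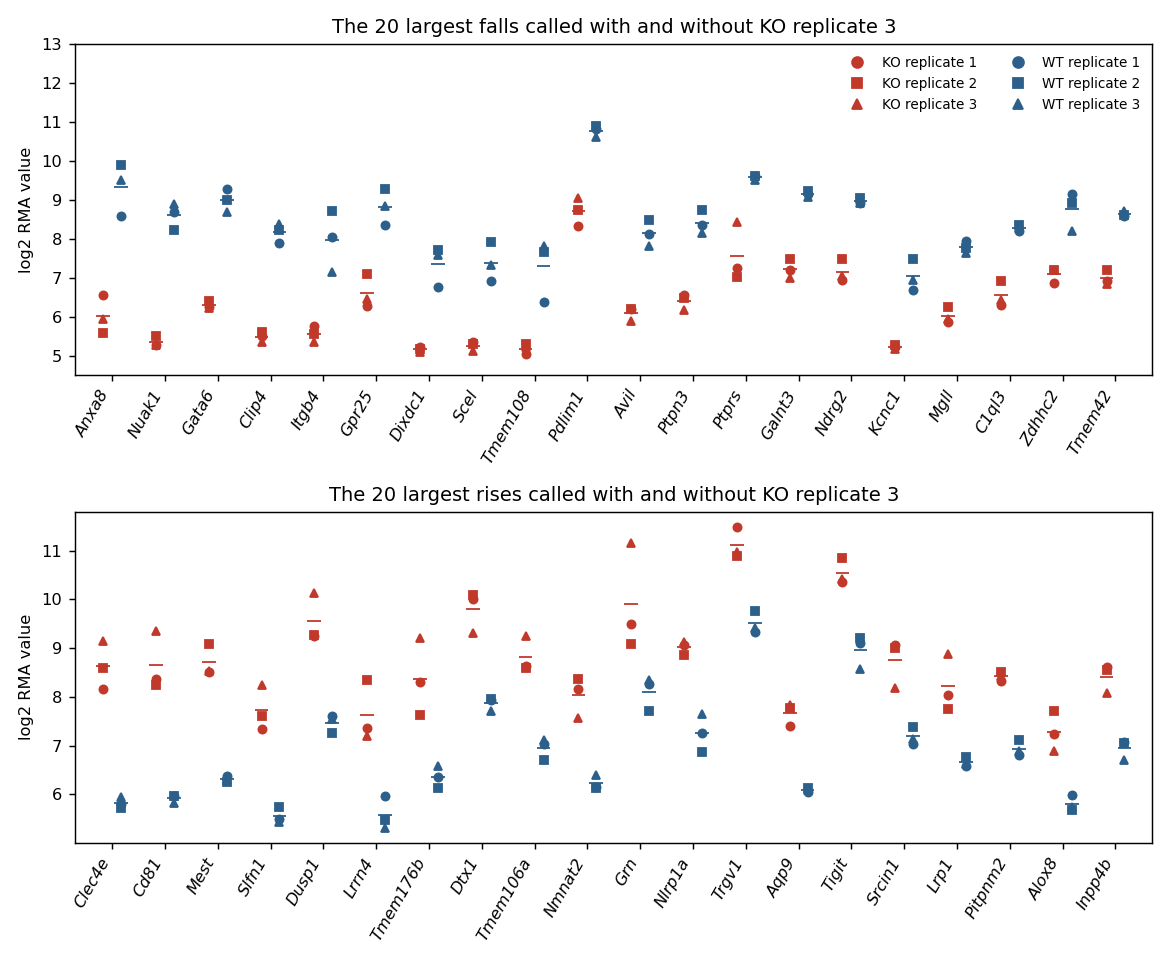
Log2 RMA values (vertical axes) of the 20 largest falls (upper panel) and the 20 largest rises (lower panel) among named genes called with and without KO replicate 3, on the KO arrays (red, left of each pair) and the WT arrays (blue). Horizontal marks are group means of 3 arrays; the groups overlap for no gene, and KO replicate 3 is the highest KO array for Cd81, Dusp1, Tmem176b, Grn and Lrp1, among others.

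Clec4e led the rises. It encodes Mincle, a C-type lectin receptor best known from macrophages, and was 8.15, 8.59 and 9.14 in KO cells, against 5.79, 5.71 and 5.95 in WT cells. All KO arrays lay above all WT arrays, with KO replicate 3 the highest. The gene was 6.99-fold higher (5.16 to 9.48, adjusted p = 1.78e-05), and its log2 difference was 2.81 with all arrays, 2.55 without KO replicate 3 and 2.77 with KO replicate 2 alone. Cd81, a tetraspanin that organizes partner proteins in the membrane, was 8.37, 8.24 and 9.36 in KO cells, against 5.97, 5.96 and 5.81 in WT cells. KO replicate 3 was the highest array, and all KO arrays were far above WT. The rise was 6.69-fold (4.20 to 10.7, adjusted p = 0.000474), with a log2 difference of 2.74, or 2.39 without KO replicate 3. Mest, an imprinted gene, was 8.50, 9.09 and 8.53 in KO cells, against 6.38, 6.26 and 6.30 in WT cells, and rose 5.26-fold (adjusted p = 0.000474). The log2 differences of Clec4e, Cd81 and Mest were 2.58, 2.34 and 2.41 within the low-Xist arrays, and 3.30, 3.47 and 2.26 within the high-Xist arrays, where KO replicate 3 is the only KO array.

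Dusp1, Dtx1 and Inpp4b were among the 20 largest rises. Dusp1, a phosphatase that switches off MAP kinases, was 9.25, 9.26 and 10.14 in KO cells, against 7.61, 7.25 and 7.54 in WT cells. Dtx1, a ubiquitin ligase and target of Notch signalling, was 10, 10.10 and 9.31 in KO cells, against 7.94, 7.95 and 7.71 in WT cells. Inpp4b, which removes a phosphate from signalling phosphoinositides, was 8.61, 8.55 and 8.08 in KO cells, against 7.08, 7.05 and 6.71 in WT cells. KO replicate 3 was the highest KO array for Dusp1 and the lowest for Dtx1 and Inpp4b, and no group overlapped. The rises were 4.25-fold for Dusp1 (adjusted p = 0.000509), 3.82-fold for Dtx1 (0.000415) and 2.76-fold for Inpp4b (0.00325). Within the low-Xist arrays their log2 differences were 1.65, 2.11 and 1.505 in that order, and within the high-Xist arrays 2.75, 1.47 and 1.19. Srcin1, an inhibitor of Src kinases, rose 2.95-fold (adjusted p = 0.0015) and Pitpnm2, a phosphatidylinositol transfer protein, 2.80-fold (0.000474).

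An enzyme that makes a signalling lipid rose, and one that degrades it fell. Dagla, which makes 2-arachidonoylglycerol, was 7.56, 7.08 and 7.20 in KO cells, against 6.13, 5.61 and 5.73 in WT cells, and rose 2.75-fold (adjusted p = 0.000122). Mgll, which degrades that lipid, was 5.85, 6.25 and 5.95 in KO cells, against 7.94, 7.77 and 7.64 in WT cells, and fell 3.40-fold (adjusted p = 0.00911). The KO arrays lay above all WT arrays for Dagla and below all of them for Mgll. Nmnat2, an enzyme of NAD synthesis (log2 difference 1.81), Aqp9, a channel for glycerol and water (1.59), and the lipoxygenase gene Alox8 (1.48) rose too, with adjusted p of 0.00123, 0.00155 and 0.00453.

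Rises that were largest on KO replicate 3 need the values of both fits. Grn, which encodes progranulin and is strongly made by myeloid cells, was 9.49, 9.08 and 11.15 in KO cells, against 8.27, 7.71 and 8.34 in WT cells. Its log2 difference was 1.80 (adjusted p = 0.0385) with all arrays, 1.18 (0.0471) without KO replicate 3 and 0.97 (0.592) with KO replicate 2 alone. The Grn call was also lost without WT replicate 1 (0.0854), WT replicate 2 (0.180), WT replicate 3 (0.0853) or KO replicate 1 (0.0609). Lrp1, an endocytic receptor, was 8.03, 7.74 and 8.87 in KO cells, against 6.58, 6.76 and 6.63 in WT cells, and its log2 difference was 1.55 with all arrays, 1.23 without KO replicate 3 and 1.08 with KO replicate 2 alone (adjusted p = 0.002, 0.00149 and 0.0413). Tmem176b was 8.31, 7.62 and 9.20 in KO cells, against 6.35, 6.13 and 6.57 in WT cells, with log2 differences of 2.02 (0.0114), 1.61 (0.0445) and 1.27 (0.612) in those 3 fits, and 0.0666 as the adjusted p without WT replicate 2. KO replicate 2 was the lowest KO array for each of these 3 genes. The part of other cells in these rises was not tested.

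The other rises among the 20 largest were Slfn1, a Schlafen gene of a family of near-identical copies (4.49-fold, adjusted p = 0.00911), Lrrn4 (4.14-fold, 0.0141), Tmem106a (3.67-fold, 0.000415), the inflammasome sensor gene Nlrp1a (3.38-fold, 0.00239), Trgv1, a T cell receptor gamma variable segment whose probes may read related segments (3.06-fold, 0.00623), and Tigit, described with the receptors. Without WT replicate 2 or WT replicate 3 the adjusted p of Lrrn4 was 0.0732 or 0.0690.

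Receptors that bind nectins and the poliovirus receptor moved in both directions. Tigit, an inhibitory receptor of this family, was 10.35, 10.84 and 10.42 in KO cells, against 9.11, 9.20 and 8.57 in WT cells. Cd226, which competes with Tigit for the same ligands and activates the cell, was 10.52, 10.73 and 10.44 in KO cells, against 9.10, 8.94 and 9.39 in WT cells. Cd96, the third receptor for the poliovirus receptor, was 10.85, 11.18 and 10.50 in KO cells, against 11.91, 12.05 and 11.91 in WT cells. All KO arrays were above all WT arrays for Tigit and Cd226 and below them for Cd96. Tigit rose 2.98-fold (2.39 to 3.71, adjusted p = 0.000122) and Cd226 2.68-fold (2.16 to 3.32, adjusted p = 0.000231), and Cd96 fell 2.17-fold (1.76 to 2.66, adjusted p = 0.000951). The 3 differences were 1.63, 1.48 and -0.94 on the log2 scale without KO replicate 3. They were 1.48, 1.52 and -0.89 within the low-Xist arrays, and 1.53, 1.28 and -1.48 within the high-Xist arrays.

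The windows of Clec4e, Cd96 and Tigit, as RefSeq gives them on GRCm38.p6, are shown to set surface receptors that moved in opposite directions side by side, with TGTGGT or its complement in capitals as above. They lie at chr6:123289822-123290121, chr16:46120199-46120498 and chr16:43664135-43664434, each on the minus strand.
Clec4e: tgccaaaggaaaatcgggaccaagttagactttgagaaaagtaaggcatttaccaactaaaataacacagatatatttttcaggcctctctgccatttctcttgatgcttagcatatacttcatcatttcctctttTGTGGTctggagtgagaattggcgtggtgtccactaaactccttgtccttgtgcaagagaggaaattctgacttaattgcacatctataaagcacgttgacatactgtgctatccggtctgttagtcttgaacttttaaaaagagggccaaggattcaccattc
Cd96: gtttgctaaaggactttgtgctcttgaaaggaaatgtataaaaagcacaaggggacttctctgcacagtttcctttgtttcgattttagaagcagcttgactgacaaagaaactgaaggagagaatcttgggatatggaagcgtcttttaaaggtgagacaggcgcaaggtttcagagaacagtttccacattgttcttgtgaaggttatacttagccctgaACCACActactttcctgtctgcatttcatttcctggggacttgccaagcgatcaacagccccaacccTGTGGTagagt
Tigit: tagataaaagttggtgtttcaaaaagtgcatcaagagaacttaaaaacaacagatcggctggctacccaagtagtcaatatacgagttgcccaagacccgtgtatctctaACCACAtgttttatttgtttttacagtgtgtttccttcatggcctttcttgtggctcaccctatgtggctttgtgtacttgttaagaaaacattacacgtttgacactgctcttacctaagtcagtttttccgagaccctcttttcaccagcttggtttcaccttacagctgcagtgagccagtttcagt
Clec4e, which rose, held 1 match on the gene's strand at -114. Cd96, which fell, held 1 on the other strand at -28 and 1 on the gene's strand at 39, and Tigit, which rose, held 1 on the other strand at -140.

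Calls were also counted over whole receptor lists, which were chosen with earlier results of these data known. Of 21 inhibitory receptors measured, 2 rose (Tigit and Lilrb4a) and 1 fell (Cd96), and of 32 activating receptors and adaptors 1 rose (Cd226) and none fell. The share of all named genes called by the same rule was 1.64%, 0.502% higher and 1.13% lower, and without KO replicate 3 it was 0.968%, 0.381% higher and 0.587% lower. Median log2 differences were 0.24 for the inhibitory list, or 0.03 without KO replicate 3, and -0.15 for the activating list, or -0.04. Lilrb4a was 9.11, 9.11 and 9.71 in KO cells, against 8.18, 7.34 and 7.30 in WT cells (log2 difference 1.71, adjusted p = 0.0235). It was not called without KO replicate 3 (0.113), WT replicate 2 (0.124), WT replicate 3 (0.107) or KO replicate 1 (0.0591), and its near-identical copy Lilr4b, which probes may not tell apart from it, had a log2 difference of 1.87 (adjusted p = 0.0147, or 0.0675 without KO replicate 3).

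Cytokine and chemokine receptors gave 3 falls. Il18r1, the ligand-binding chain of the interleukin-18 receptor, was 10.61, 11.08 and 10.75 in KO cells, against 11.97, 12.14 and 12.12 in WT cells. It fell 2.40-fold (1.96 to 2.95, adjusted p = 0.000408) and was the only one of 30 measured cytokine receptor and signalling genes to pass in either fit. The median of that list was -0.02. Ccr2, a chemokine receptor of monocytes and some NK cells, was 10.61, 11.19 and 11.09 in KO cells, against 11.73, 12.08 and 11.84 in WT cells, and fell 1.90-fold (adjusted p = 0.00976, or 0.0660 without WT replicate 2). Cxcr4, which holds lymphocytes in the bone marrow, was 9.93, 10.86 and 11.41 in KO cells, against 8.97, 9.08 and 7.87 in WT cells. Its arrays did not overlap but spread widely, and the log2 difference was 2.10 (adjusted p = 0.0391), against 1.76 (0.177) without KO replicate 3, with the call lost without any 1 array except KO replicate 1. Of 22 chemokine and egress receptors, 1 rose (Cxcr4) and 2 fell (Gpr25 and Ccr2), where 0.502% of all named genes were called higher and 1.13% lower.

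Few maturation and killing genes of NK cells passed the test. Of 24 measured markers of mature NK cells, none rose and 1 fell, Styk1, a receptor-like kinase gene (6.63, 6.27 and 6.34 in KO cells, against 7.91, 7.51 and 8.0 in WT cells, 2.63-fold lower, adjusted p = 0.00566). Of 27 cytotoxic effectors and their inhibitors, none rose and 1 fell, Ctsc, the protease that activates granzymes (11.50, 11.57 and 11.75 in KO cells, against 12.06, 12.06 and 12.15 in WT cells). Ctsc fell 1.40-fold (adjusted p = 0.00922, or 0.0536 without KO replicate 1). The medians of these lists were -0.04 and -0.03, and 0.502% of all named genes were called higher and 1.13% lower. Gzmb (12.67, 12.86 and 12.60 in KO cells, against 12.74, 12.51 and 12.59 in WT cells) and Prf1 (13.21, 13.28 and 12.96 in KO cells, against 13.37, 13.39 and 13.48 in WT cells), named after their values were seen as the best known effectors, had adjusted p of 0.929 and 0.483. A p over the threshold does not show that the groups were alike.

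Of 20 immature NK markers, 3 rose (Cxcr4, Inpp4b and Cd226) and 1 fell (Ccr2), and without KO replicate 3 the counts were 2 and 1. Over all named genes, 0.502% were called higher and 1.13% lower, or 0.381% and 0.587% without KO replicate 3. Of 22 markers of type 1 innate lymphoid cells, 2 rose in both fits (Tmem176b and Inpp4b) and none fell, with a median log2 difference of 0.18 in either. Among 31 transcription factors of NK cells, Tox, a factor of NK development, rose and Gata6 fell. Tox was 9.63, 9.73 and 9.42 in KO cells, against 8.56, 8.60 and 9.04 in WT cells, and its log2 difference of 0.87 passed with all arrays (adjusted p = 0.0322) but not without KO replicate 3 (0.0571), KO replicate 1 (0.116), KO replicate 2 (0.0581), WT replicate 1 (0.126) or WT replicate 2 (0.152).

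Among the other lists, 2 of 22 tetraspanins rose in both fits, Cd81 and Tspan32. For the counts of this paragraph, the shares over all named genes were 0.502% higher and 1.13% lower. Without KO replicate 3 they were 0.381% and 0.587%. Tspan32 was 12.38, 12.34 and 11.89 in KO cells, against 11.37, 11.21 and 11.60 in WT cells (1.76-fold higher, adjusted p = 0.0132, or 0.0816 without WT replicate 2 and 0.0696 without KO replicate 1). Ccl9, a CC chemokine, was 9.09, 8.56 and 9.57 in KO cells, against 7.70, 8.05 and 7.47 in WT cells, and was the only one of 27 cytokines and chemokines to pass (2.52-fold higher, adjusted p = 0.00827). Dusp1 alone of 28 immediate early and MAP kinase phosphatase genes, Dtx1 alone of 34 TGF-beta and Notch pathway genes, Slfn1 alone of 27 type I interferon response genes, Itgb4 alone of 28 integrin and adhesion genes and Kcnc1 alone of 20 ion channels passed, each in both fits. Of 22 survival and death genes, Bcl2l1, which encodes the survival protein Bcl-xL (log2 difference 0.43, adjusted p = 0.0478), rose and Pmaip1, which encodes the pro-death protein Noxa (-0.49, 0.0411), fell. The Bcl2l1 call was lost without any 1 array except KO replicate 2, and the Pmaip1 call without any 1 array. None of 21 glycolysis and nutrient uptake genes passed: Slc7a5, an amino acid transporter, had a log2 difference of 0.90 that was -0.01 without KO replicate 3, and Myc one of -0.72 (adjusted p = 0.418). A list of 23 kinases, scaffolds and cytoskeleton genes, 9 of which fell, was drawn up from earlier results on these arrays, so its count is no independent evidence. The other gene lists were also chosen with earlier results of these data known, so their counts are not independent evidence either.

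Markers of other lymphoid and blood cells gave 1 call, where 1.64% of all named genes were called. Ubash3a, a regulator of T cell receptor signalling, was 8.43, 8.62 and 8.61 in KO cells, against 7.62, 7.62 and 7.92 in WT cells, and rose 1.78-fold (adjusted p = 0.0111). Its adjusted p was 0.0512 without WT replicate 1 and 0.0660 without WT replicate 2. The other 17 measured T cell markers did not pass, and the summed T cell level was 12.51, 12.70 and 12.35 in KO cells, against 12.66, 12.53 and 12.54 in WT cells. No gene passed among 16 B cell markers, 13 of red cells and platelets, or 17 of mast cells and basophils. Cd72, a B cell receptor gene, was 5.34, 5.17 and 5.25 in KO cells, against 10.08, 6.96 and 5.93 in WT cells, with WT replicate 1 far above the other WT arrays (adjusted p = 0.338). Ppbp of platelets, Slc4a1 of red cells and Hdc and Mcpt8 of basophils had log2 differences of 0.55, 0.26, 0.75 and 0.70, and for each of the 4 the highest array was KO replicate 3, while none passed the test.

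Genes of mitosis were higher on every KO array, although few single genes passed the test. These genes encode the kinases, motors and checkpoint proteins that divide the chromosomes, and their transcripts accumulate as cells pass from G2 into mitosis. All 31 measured members had each KO array above each WT array, a pattern found for 7.12% of named genes. Summed over the 31 genes the log2 level was 13.57, 13.30 and 15.36 in KO cells, against 12.16, 12.16 and 11.99 in WT cells. KO replicate 3 was highest, and KO replicates 1 and 2 were also above every WT array. The median log2 difference over the list was 2.00 with all arrays, 1.21 without KO replicate 3 and 1.14 with KO replicate 2 alone, beside medians over all named genes of -0.0158, -0.0072 and -0.0163.

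Prc1, which bundles the microtubules of the central spindle, was 8.77, 8.73 and 9.76 in KO cells, against 6.90, 6.84 and 7.09 in WT cells. It was the only member to pass with all arrays (4.42-fold higher, 2.47 to 7.89, adjusted p = 0.0135), and its adjusted p was 0.0688 without KO replicate 3 and 0.0677 without WT replicate 2. The rise of Prc1 was not particular to CD11b cells. By the same limma fit it was 5.01-fold higher in KO CD27 cells (adjusted p = 0.0108) and 5.59-fold higher in KO DP cells (0.0105). None of the 31 passed without KO replicate 3. When the arrays of KO replicate 3 in all 3 subsets were left out together, 25 of the 31 rose and none fell, where 1.86% of named genes were called, 0.913% higher and 0.943% lower. Other members, named after their values were seen, were Ccna2, which encodes cyclin A2 (9.48, 9.11 and 11.75 in KO cells, against 6.39, 6.76 and 6.37 in WT cells, adjusted p = 0.086), Ccnb2, which encodes cyclin B2 (10.82, 10.50 and 12.08 in KO cells, against 8.89, 8.24 and 8.01 in WT cells, adjusted p = 0.0504), and the proliferation marker Mki67 (11.04, 10.82 and 12.38 in KO cells, against 9.51, 9.21 and 9.06 in WT cells, adjusted p = 0.085). KO replicate 3 was the highest array for all 3.

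DNA replication genes, which act earlier in the cycle, differed mainly on KO replicate 3. Of 29 measured, 8 had each KO array above each WT array, a pattern found for 7.12% of named genes, and none passed in either fit. The summed log2 level was 13.10, 13.10 and 14.90 in KO cells, against 12.95, 13.16 and 13.32 in WT cells, so that KO replicates 1 and 2 lay within the range of the WT arrays. The median log2 difference was 0.79 with all arrays, 0.05 without KO replicate 3 and -0.10 with KO replicate 2 alone. Rrm2, a subunit of ribonucleotide reductase, was 7.21, 6.89 and 10.47 in KO cells, against 6.43, 6.62 and 6.43 in WT cells (adjusted p = 0.593), and Pole, a DNA polymerase subunit gene, was 7.42, 6.59 and 10.16 in KO cells, against 6.49, 6.75 and 6.77 in WT cells (0.650).

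**Figure D4:**
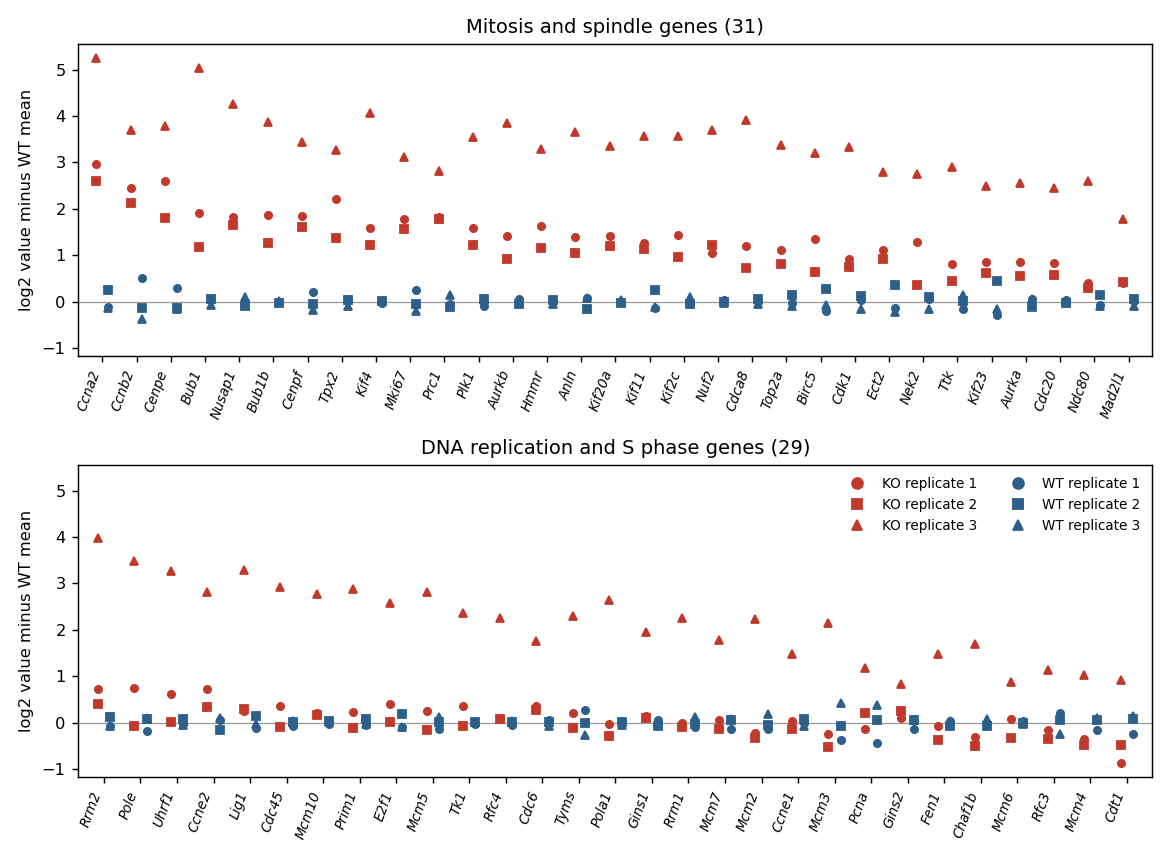
Log2 value minus the mean of the 3 WT arrays (vertical axes) for 31 mitosis and spindle genes (upper panel) and 29 DNA replication and S phase genes (lower panel), on KO (red) and WT (blue) arrays. Genes are sorted by the log2 KO minus WT difference with all arrays. In the upper panel every KO array is above every WT array for each gene, while in the lower panel KO replicate 3 stands alone and KO replicates 1 and 2 lie around 0 for most genes.

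Some calls depended on KO replicate 3. Of the 231 probe sets called only with all arrays, the 10 largest named genes included Gfra2, a receptor subunit for neurturin (log2 difference 1.80, adjusted p = 0.0351, or 0.116 without KO replicate 3), Ttc28 (1.68, 0.0103 or 0.0558), for which all 3 probe sets were called higher, Mag, which encodes myelin-associated glycoprotein (1.63, 0.018 or 0.0672), Nlrc5, the transactivator of MHC class I genes (1.30, 0.0427 or 0.127, with 6 of 19 probe sets called), F2rl2 (1.28, 0.0252 or 0.0996) and Fam174b (-1.63, 0.0214 or 0.0890). Without KO replicate 3 their log2 differences were 1.78, 1.52, 1.63, 1.31, 1.24 and -1.57 in the same order. Each of these 6 genes lost its call without at least 1 other array too, among them WT replicate 2 for 5 of the 6, all but Ttc28.

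The reverse held for genes that KO replicate 3 carried at or above the WT level. Anxa5, an annexin that binds phosphatidylserine, was 7.65, 8.52 and 10.09 in KO cells, against 10.77, 10.73 and 10 in WT cells. Without KO replicate 3 it fell by 2.41 on the log2 scale (adjusted p = 0.0169), and with it the groups overlapped (log2 difference -1.74, adjusted p = 0.128). Myo5a, an actin motor, was 6.03, 6.33 and 8.24 in KO cells, against 7.49, 7.65 and 7.17 in WT cells (-1.26 without KO replicate 3, adjusted p = 0.0294). Ptprj, a receptor phosphatase, was 8.0, 8.12 and 9.69 in KO cells, against 8.84, 9.38 and 8.96 in WT cells (-1.0, adjusted p = 0.0277). On KO replicate 3 both Myo5a and Ptprj exceeded every WT array. Rab32 (-0.87), Slc44a1 (-0.79) and Chml (-0.67) fell in that fit likewise, and Epdr1 (1.41), Raver2 (1.28), Ube2e2 (1.23) and Dip2a (0.86) rose. These 4 were lower on KO replicate 3 than on the other KO arrays.

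The KO minus WT difference in CD11b cells was tested against the mean of the same difference in CD27 and DP cells. This test called 5 of 35399 probe sets (0.0141%), 1 higher (0.00282%) and 4 lower (0.0113%), while 2212 had an unadjusted p under 0.05. Nuak1 led them. It was between 4.97 and 5.24 on the 6 CD27 arrays and between 4.99 and 5.70 on the 6 DP arrays, and in WT it reached 8.23 to 8.88 in CD11b cells alone. Its KO minus WT difference was -3.25 in CD11b cells, -0.16 in CD27 cells and -0.42 in DP cells, and the difference of differences was -2.96 (standard error 0.18, adjusted p = 4.01e-06). Ndrg2 gave -1.82 in CD11b cells, -0.25 in CD27 cells and -0.26 in DP cells (difference -1.56, adjusted p = 0.00409). Both genes were highest on the WT CD11b arrays, and both were still called without KO replicate 3 (adjusted p = 4.42e-05 and 0.0281). In WT cells Nuak1 averaged 5.17 in CD27 and 5.49 in DP cells, against 5.35 in KO CD11b cells. For Ndrg2 these means were 6.28, 6.51 and 7.15. With so little signal to lose there, the test cannot tell a KO effect confined to CD11b cells from WT expression confined to them.

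The other 3 genes passed less firmly. Itgb4 had a difference of differences of -2.21, Cdhr1, a cadherin-related gene of photoreceptors, of -0.55, and Marcks, a membrane protein that binds actin, of 0.99, each with an adjusted p of 0.0428. Each had an adjusted p of 0.111 without KO replicate 3. In WT cells Itgb4 averaged 5.36 in CD27 and 5.92 in DP cells, against 5.57 in KO CD11b cells, so the same limit holds. Marcks was 6.37, 6.77 and 6.70 in KO CD11b cells, against 5.63, 5.37 and 5.47 in WT CD11b cells, and all DP and CD27 arrays lay between 4.84 and 5.46. Cdhr1 was 5.03, 5.0 and 4.96 in KO CD11b cells, against 5.52, 5.73 and 5.63 in WT CD11b cells, all near the bottom of the scale of the array.

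**Figure D5:**
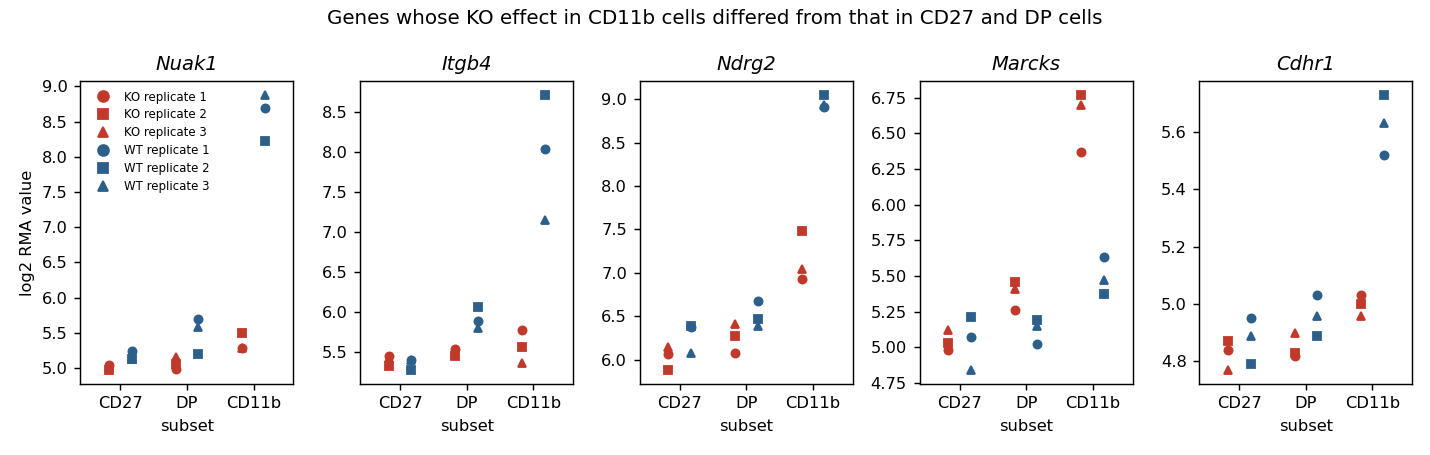
Log2 RMA values (vertical axes) of the 5 genes whose KO minus WT difference in CD11b cells differed from that in the other subsets, by subset (horizontal axis), on KO (red, left of each pair) and WT (blue) arrays, 3 per group. Nuak1, Itgb4, Ndrg2 and Cdhr1 are highest on the 3 WT CD11b arrays, and Marcks is highest on the 3 KO CD11b arrays.

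For most genes a difference from the other subsets was not shown. In the other subsets, 237 named genes were called between KO and WT CD27 cells (1.19%) and 104 between KO and WT DP cells (0.522%). Of the 109 named genes whose probe set with the highest mean was lower in KO CD11b cells in both fits, 39 were called lower in KO CD27 cells (168 of all 19938 named genes, 0.843%) and 35 in KO DP cells (61, 0.306%), 23 in both of these, and 58 in neither. Of the 68 that were higher in both fits, 16 were called higher in CD27 cells (69, 0.346%) and 32 in DP cells (43, 0.216%), 14 in both, and 34 in neither. Over all 19938 named genes, 63 were called in both of these subsets and 19660 in neither. A gene called in neither can still have moved the same way. The difference had the same sign in all 3 subsets for 102 of the 109 and 62 of the 68, against 9184 of all named genes. The labels do not say whether arrays with the same replicate number in different subsets came from the same animals. Mean Xist was 7.90, 7.90 and 7.96 in KO CD11b, CD27 and DP cells, and 10.07, 10.46 and 10.30 in WT. The correlation within blocks of genotype and replicate number was 0.2064. The main fit treated the subsets as independent, so these overlaps may not be independent evidence. Shared animals were not tested. Clec4e rose by 2.55 in CD27 cells and 2.98 in DP cells on the log2 scale, and Clip4 fell by 2.01 and 2.54, with adjusted p of 6.37e-05 and 2.33e-05 for Clec4e and 0.000296 and 7.63e-05 for Clip4. Anxa8 instead had a difference of -0.04 in CD27 cells (adjusted p = 0.991) and of -1.82 in DP cells (0.0449). Its difference of differences, -2.38, missed the threshold (adjusted p = 0.186).

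The same genes were followed in the WT step from CD27 to DP cells, which uses none of the CD11b arrays. Of the 109 genes lower in KO CD11b cells, 75 had a higher mean in WT DP than in WT CD27 cells (68.8%), against 59.8% of all named genes, and 4 were called higher and 1 lower. Of the 68 genes higher in KO CD11b cells, 26 were higher in WT DP cells (38.2%), and 10 were called lower and none higher. Over all named genes, 60 were called higher (0.301%) and 89 lower (0.446%) in that step. Anxa8 is an example of the first kind, at 6.90, 8.34 and 7.86 in WT DP cells, against 5.55, 5.35 and 5.22 in WT CD27 cells.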

How the data were processed

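RNA of the sorted cells was labelled with an Affymetrix whole-transcript kit and hybridised to mouse gene arrays, per the labels' protocols. The deposited values were log2 signals per probe set; the submitters' processing notes name RMA and Partek, and versions are not given in the sources used here. No further normalization was applied. The values ran from 3.91 to 14.37.

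Of 35399 probe sets, 21789 had 1 gene symbol in the platform annotation, 1621 had several and 11989 were not listed; only those with 1 symbol were named. Where a gene had several probe sets, that with the highest mean over all arrays was counted in the gene lists. A linear model with 6 group means over all 18 arrays was fitted with limma 3.58.1 in R 4.3.3 (statmod 1.5.0), followed by eBayes and Benjamini-Hochberg adjustment over all probe sets, with a threshold of 0.05. All 6 groups entered the fit to share 1 estimate of the spread, with 12 residual degrees of freedom. Intervals are 95% intervals of the fit. An exact permutation test of 3 against 3 arrays cannot go below a two-sided p of 0.1, so none was used. The fits were tested on simulated data.

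The text names the 20 largest rises and the 20 largest falls called with and without KO replicate 3, the 10 largest changes called in 1 of these fits only, up to 6 called members per gene list (2 where none passed), the genes of the subset difference test, the 10 smallest p-values and a few genes fixed by name. Predicted genes could be passed over. The members of the comparison and the gene lists were chosen with earlier results of these data known, so counts over the lists are not independent evidence. Alternatives covered normalization, filters, the prior, weights, the arrays in the fit, blocks, Xist and left-out arrays.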

Additional observations from a re-analysis of the deposited data

Results flagged for a closer look

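The KO minus WT difference in CD11b cells differed from the mean of that in CD27 and DP cells for 5 genes by limma's test of the difference itself. The log2 difference of differences was -2.96 for Nuak1 (adjusted p = 4.01e-06), -1.56 for Ndrg2 (0.00409), -2.21 for Itgb4 (0.0428), -0.55 for Cdhr1 (0.0428) and 0.99 for Marcks (0.0428). Set against CD27 cells alone, all 5 were called. Set against DP cells alone, Nuak1 and Ndrg2 were called, and the adjusted p was 0.547 for Itgb4, 0.432 for Cdhr1 and 0.547 for Marcks. With KO replicate 2 as the only KO CD11b array, the KO minus WT difference in CD11b cells was -3.10 for Nuak1, -1.49 for Ndrg2, -2.41 for Itgb4, -0.62 for Cdhr1 and 1.29 for Marcks.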

How the results depend on the processing

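The count of probe sets called between KO and WT CD11b cells, 457, was 34 with the compared groups alone, 296 with a 1.5-fold minimum, 802 with a fixed replicate block and 1030 with Xist as a covariate. It ran from 182 to 1094 with 1 array left out and was 59 with KO replicates 1 and 3 left out, a setting chosen after seeing the data. The count without KO replicate 3, 255, was 87 with the compared groups alone and 480 (248 higher, 232 lower) without the 3 arrays of KO replicate 3, and ran from 59 to 350 with 1 more array left out. The 5 calls of the subset difference became 3 after cyclic loess, 1 among probe sets above the median mean, 16 with array weights, 10 with 1 probe set per gene, 8 with the fixed replicate block, 17 with a random block and 3 with Xist as a covariate. They ran from 3 to 10 with 1 array left out, and were 13 against CD27 and 2 against DP cells alone, both added after seeing the data. The cause of these shifts was not tested.

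The Runx3 difference of -0.49 did not pass with the compared groups alone (-0.49, adjusted p = 0.236) or the 1.5-fold minimum (-0.49), without the 3 arrays of KO replicate 3 (-0.41, 0.0748) or without KO replicates 1 and 3 (-0.52, 0.419), and ran from -0.58 to -0.41 with 1 array left out. Of 66 named genes that were called, 11 kept the call under every alternative run: Avil, Cd226, Clec4e, Clip4, Mest, Ndrg2, Nuak1, Pdlim1, Pitpnm2, Ptpn3 and Tmem42. Another 23 lost it with 1 array left out, and none reversed. KO and WT arrays of the same replicate number had r between -0.0577 and -0.0027, and those of different numbers between -0.0528 and 0.074. With 3 arrays per group these values cannot tell whether KO and WT arrays were paired. Fits with 1 or 2 arrays in a group assume that these vary like the other groups. Low signals near the bottom of the scale limit what can be seen for genes such as Cdhr1, and for Nuak1 and Itgb4 in CD27 and DP cells.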
